A study of Strongylocentrotus intermedius with 6 samples.

Results

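Lectins are proteins that bind sugars, and animals use them as recognition molecules of innate immunity. Some sit on the cell surface and take up what they bind, such as the mannose receptors of mammalian macrophages. Others are secreted, such as collectins, which can start the lectin pathway of complement, and galectins, which bind galactose-containing sugars. Sea urchins lack antibodies and carry large families of genes with a C-type lectin domain, a fold named for its use of calcium in sugar binding.

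The genes described here are the coding models whose authors' description named a C-type lectin, mannose receptor, CD209 antigen, asialoglycoprotein receptor, collectin, mannose-binding protein, lithostathine, perlucin, galectin, rhamnose-binding lectin, fucolectin or intelectin. Descriptions with snaclec, lectoxin, venom, echinoidin or serine were left out. This rule took 82 of 22969 coding models, out of 30559 models in all, and used no expression value. Each description names a similar gene, often of another organism, so a name such as MRC1 states a named relative and not a known function in sea urchins. The rule also takes in 12 genes described as galectin-3-binding proteins, which are ligands of a galectin in mammals and not lectins of the galectin fold. It does not take in 50 genes of other sugar-binding names, among them selectins, echinolectin and lectins specific for N-acetylgalactosamine. Of these 26 were tested and none was called by edgeR or DESeq2. An unadjusted edgeR p under 0.05 was reached by 2 of them, beside 7.31% of all genes tested.

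The sequenced RNA came from coelomocytes, immune cells that circulate in the body cavity, of the sea urchin Strongylocentrotus intermedius. All animals carried the label LD, the usual abbreviation for light alternating with dark. There were 3 libraries at ZT0 and 3 at ZT12 (zeitgeber time, customarily hours since lights-on), and photoperiod and Cryptochrome1 in immunity are named in the study's title. No genotype, strain or age, and no statement on pooling of animals, is given in the sources used here, so the spread that p-values are set against is that of these libraries and may be partly technical.

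Total counts were 20229918 to 24368884 per library, with 23487 to 24677 genes detected. Markers for coelomocytes (31 genes, mostly echinoidins, with C3, profilins and major yolk protein) summed to 10200 to 16900 CPM (counts scaled to a common library size) in a library, and 3 of the 31 were at 0 in every library. No gene was named amassin, a clotting protein of these cells. Over all 18456 genes tested, 24 passed the test between times, or 0.130%. In bulk samples fewer cells of a type and less RNA per cell cannot be told apart.

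Of the 82 genes, 20 were mannose receptors and 22 were C-type lectin receptors of other kinds or further C-type lectins. There were 15 rhamnose-binding lectins, 13 galectins or galectin-binding proteins, 7 collectins and 5 short secreted C-type lectins (lithostathines and perlucins). No model was described as a fucolectin or intelectin. The authors' gene ontology terms, which the rule did not use, gave carbohydrate binding for 41 of the 82, mannose binding for 29, endocytosis for 19 and the extracellular region for 17. Mannose binding was assigned to 35 coding models in the whole table, so most carriers of that term are among these genes. The rule itself selected on mannose receptor and mannose-binding in the descriptions, so this overlap is no independent check of it.

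Most of these genes had little or no transcript in coelomocytes. In all 6 libraries 13 genes had 0 counts, and 19 were above 1 CPM in every library. A count of 0 allows up to 3 counts, or 0.123 to 0.151 CPM depending on the library. Between 43 and 51 of the 82 had at least 1 count in a given library, with 49 to 51 at ZT12 and 43 to 48 at ZT0. Of all 22969 coding models, 18673 to 19125 had at least 1 count in the ZT12 libraries and 17967 to 18968 in the ZT0 libraries. The difference in lectin genes detected was not tested. Filtering for low counts left 30 genes to test, and the other 52 can only be described. Collectins were nearly silent, with 3 of 7 at 0 everywhere and 1 of 7 above 1 CPM in any library.

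One gene stood above the others in every library. Galectin-8 (Lgals8, ZJQ001172), which in mammals binds sugars exposed on damaged vesicles, had 1390, 671 and 748 CPM in ZT12 libraries 1, 2 and 3 and 898, 429 and 973 CPM in ZT0 libraries 1, 2 and 3. The ranges of the times overlapped, with ZT12 library 1 highest and ZT0 library 2 lowest. It averaged 310 FPKM (fragment counts scaled by the length of the gene model and by the library total, the scale on which levels of genes of unlike length can be set side by side), which placed it 181st among coding models. Of a library's counts, 0.110 to 0.186% fell on the 82 genes together.

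Next on the FPKM scale came 4 models whose identifiers include a run of consecutive numbers. A gene described as the mannose-binding isoform of a C-type lectin (ZJQ016019) averaged 122 FPKM, and the Cd209d genes ZJQ016021 and ZJQ021979 averaged 99.0 and 90.5 FPKM. CD209 proteins are dendritic cell and macrophage receptors for mannose-rich sugars in mammals. The short model MRC2 (ZJQ016020, 402 bases) averaged 41.8 FPKM and all other members lay at 15.5 FPKM or below. ZJQ016019, ZJQ016020 and ZJQ016021 are consecutive identifiers. Their position in the genome and any sharing of reads between near-identical copies are not analysed here, so separate values within this family are uncertain.

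**Figure D1:**
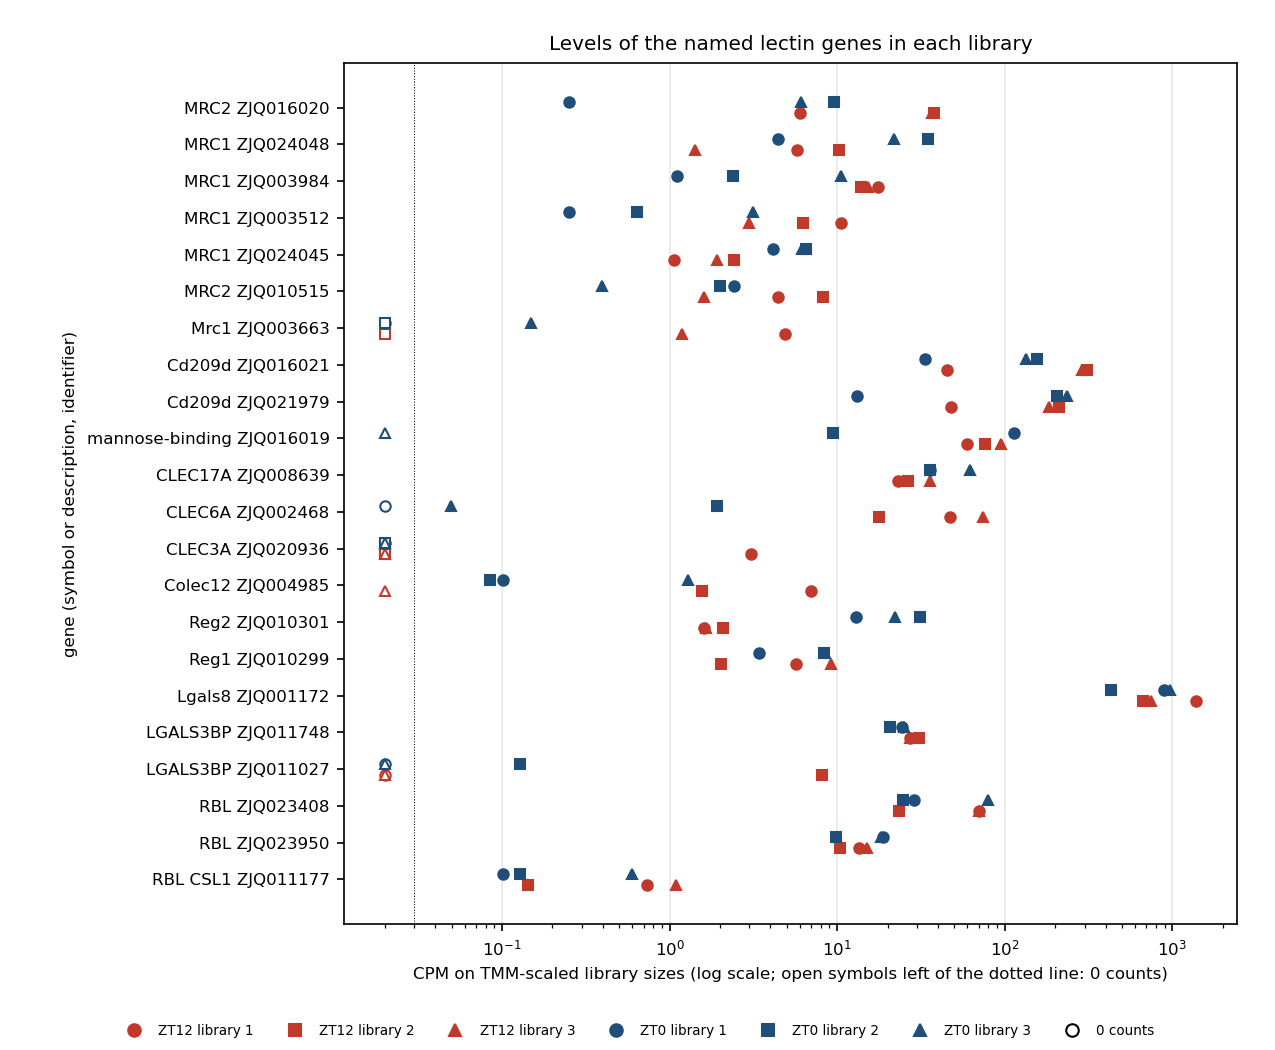
Level of 22 named lectin genes in each library, in CPM on scaled library sizes (log axis). Red symbols are ZT12 libraries, blue symbols ZT0 libraries, the shape gives the library number, and open symbols mark 0 counts. Reg2 and CLEC6A are among the genes whose colours separate, while genes such as ZJQ016019 run from 0 to 113 CPM within 1 time.

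Between the times, 1 of the 30 tested lectin genes changed, beside 0.130% of all genes tested, and none was higher. Lithostathine-2 (Reg2, ZJQ010301) is related to the pancreatic stone protein of mammals, a secreted protein that is little more than a C-type lectin domain. It had 1.60, 2.09 and 1.65 CPM in ZT12 libraries 1, 2 and 3 and 13, 31.1 and 22.1 CPM in ZT0 libraries 1, 2 and 3. Every ZT12 library lay below every ZT0 library, and the spread at ZT12 was narrow. Reg2 fell from 22.1 ± 9.08 to 1.78 ± 0.273 CPM (SD, n = 3), a 12.5-fold lower level (log2 fold change -3.64, SE 0.43, edgeR quasi-likelihood test with Benjamini-Hochberg adjusted p = 0.0366). Of all genes tested, 0.114% were called lower and 0.0163% higher. DESeq2 also called Reg2 alone among the lectins (adjusted p = 6.6e-14), beside 1.33% of all genes, of which 0.67% were higher and 0.66% lower.

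The edgeR call for Reg2 was lost when any 1 library other than ZT0 library 1 was left out. Its fold change held between -3.91 and -3.30 on the log2 scale when any single library was left out. In those fits its edgeR adjusted p was 0.0256 without ZT0 library 1, but 0.103 and 0.145 without ZT0 libraries 2 and 3, and 0.17, 0.0824 and 0.151 without ZT12 libraries 1, 2 and 3. The call was also lost with plain library sizes, where its adjusted p was 0.0671, and under 4 other tools or settings named in the closing section.

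Lithostathine-1 (Reg1, ZJQ010299), whose identifier is 2 before that of Reg2, did not follow it. It had 5.69, 2.04 and 9.23 CPM in ZT12 libraries 1, 2 and 3 and 3.43, 8.33 and 8.5 CPM in the ZT0 libraries, and the times overlapped (log2 fold change -0.26, SE 0.58, edgeR adjusted p = 0.947, with an estimate of 0.13 without ZT12 library 2). The ratio of Reg2 to Reg1 in CPM was 0.178 to 1.02 in the ZT12 libraries and 2.60 to 3.78 in the ZT0 libraries. With 3 libraries a time the smallest p of an exact permutation test is 0.1, and this ratio was not tested. The other members of the short secreted group were 3 perlucin-like genes, a family named for a protein of abalone nacre, and none passed the filter.

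Some lectin-like genes that the rule left out were lower at ZT12 as well. Snaclecs are C-type lectin-like proteins of snake venoms, and in sea urchins the name marks a C-type lectin domain of unassigned function. Between the identifiers of Reg1 and Reg2 lies ZJQ010300 (snaclec echicetin), with 0, 0 and 0.0914 CPM at ZT12 and 4.64, 8.67 and 6.91 CPM at ZT0 (edgeR adjusted p = 0.0538, chosen here after its values were seen). Of 18 tested genes in the left-out set of snaclecs, lectoxins and echinoidins, 2 were called lower and none higher, beside 0.114% and 0.0163% of all genes tested. These were ZJQ010319 (snaclec jerdonibitin, log2 fold change -4.06) and ZJQ009998 (lectoxin-Lio1, -6.35), both with an edgeR adjusted p of 0.00587. Both calls, and those of all other genes, were lost without ZT12 library 1 or without ZT12 library 3. ZJQ009998, with 6, 2 and 0 counts at ZT12, and ZJQ010300, with 0, 0 and 2, passed the filter only through ZT0. The count of calls in this set thus describes the tested genes alone.

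Reg2 also moved with most of the tested skeleton genes. The spicule matrix proteins, which are laid down in the calcite skeleton, carry a C-type lectin domain as well. Of 11 tested markers of skeleton-forming cells, 6 were called lower, beside 0.114% of all genes tested, and 3 had estimates above 0. One of these, the mesenchyme-specific glycoprotein gene ZJQ008025, was higher in all ZT12 libraries (log2 fold change 0.74, SE 0.27, edgeR adjusted p = 0.617). The called genes ZJQ010416 (2, 9 and 2 counts at ZT12) and ZJQ008708 (12, 0 and 4) passed the filter only through ZT0. The count of calls thus describes the tested markers alone. In the whole list of 18, 1 was at 0 everywhere. The list summed at ZT12 to 126 ± 51 CPM and at ZT0 to 589 ± 225 CPM (SD, n = 3) with no overlap. The spicule matrix gene SM50 (ZJQ010321) had 5.44, 5.75 and 4.02 CPM at ZT12 and 64.2, 134 and 92.8 CPM at ZT0. At ZT0 both genes were lowest in library 1 and highest in library 2. The ratio of Reg2 to SM50 in CPM was 0.293 to 0.409 at ZT12 and 0.202 to 0.238 at ZT0. That of Reg2 to ZJQ010319 was 0.202 to 0.246 at ZT12 and 0.146 to 0.173 at ZT0. Both ratios were thus higher in every ZT12 library. By number, PM27 (ZJQ010317), ZJQ010319 and SM50 (ZJQ010321) lie close to Reg2 (ZJQ010301). Their position in the genome and any sharing of reads between them are not analysed here. The part of skeleton-forming cells in the Reg2 result was not tested.

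**Figure D2:**
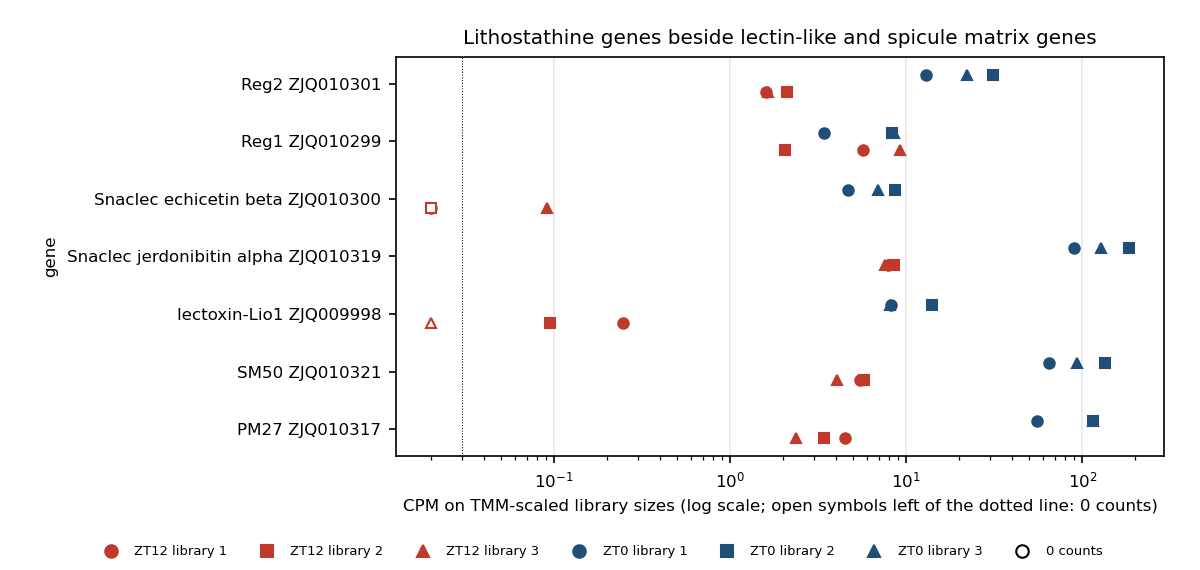
Level in CPM (log axis) of the lithostathine genes Reg2 and Reg1, of 3 lectin-like genes outside the rule and of the spicule matrix genes SM50 and PM27, by library. Symbols are as in the plot of named genes. The ZT0 libraries lie above the ZT12 libraries in every gene but Reg1.

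CLEC6A (ZJQ002468) had the largest estimated difference among the tested lectins and did not pass. The mammalian protein of this name, dectin-2, is a receptor for fungal mannans. It had 47.2, 17.9 and 74.7 CPM in ZT12 libraries 1, 2 and 3, against 0, 1.92 and 0.0497 CPM in the ZT0 libraries, so all ZT12 libraries were higher. The log2 fold change was 6.02 (SE 0.93, edgeR adjusted p = 0.109, range 0.0621 to 0.326 with single libraries left out). The estimate ranged from 5.48 to 10.56 in those fits, the highest without ZT0 library 2, which supplied 45 of the 46 counts at ZT0. Reads at ZT0 were thus 0, 45 and 1 against 376 to 1635 at ZT12.

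Of the 30 tested genes, 6 had an unadjusted edgeR p under 0.05, 4 higher and 2 lower, beside 7.31% of all genes tested (3.44% higher and 3.87% lower). The times did not overlap in 6 of the 30 (3 above and 3 below at ZT12), beside 12.2% of all genes tested (5.84% above and 6.33% below). The median log2 fold change of the 30 was 0.29, with 18 above and 12 below 0, against 0.00 for all genes. Genes that passed the filter only through the time where they were high enter these counts, so they describe the tested genes alone.

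**Figure D3:**
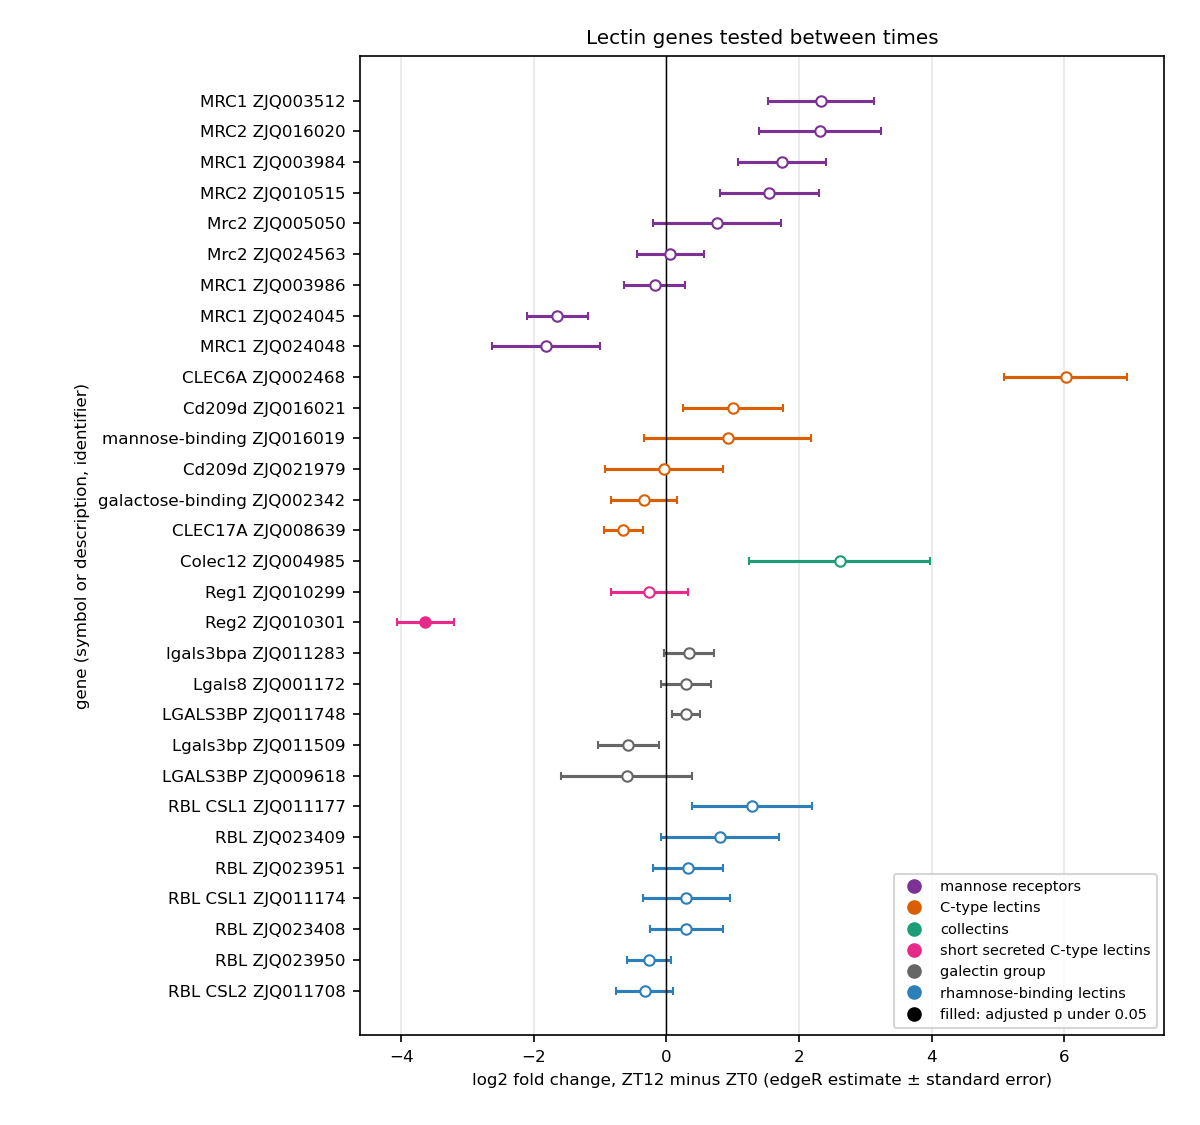
The edgeR log2 fold change (ZT12 minus ZT0) of the 30 lectin genes tested, with its standard error, coloured by role group. A filled point marks an adjusted p under 0.05, which Reg2 alone reached, and most other bars reach or come near 0.

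Mannose receptors had estimates on both sides of 0, with no test of differences between genes. In mammals these proteins carry a row of C-type lectin domains and deliver bound glycoproteins into the cell, and MRC2 also binds collagen. None of the 9 tested genes passed (smallest adjusted p = 0.43), 4 had an unadjusted p under 0.05 (3 higher and 1 lower, beside 7.31% of all genes tested), and estimates ran from -1.82 to 2.33 on the log2 scale. The group as a whole summed to 58.8 to 84.4 CPM at ZT12 and 19.0 to 65.0 CPM at ZT0, so the times overlapped.

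Within it, MRC1 (ZJQ003984) had 17.6, 13.8 and 15.2 CPM in ZT12 libraries 1, 2 and 3 and 1.11, 2.39 and 10.5 CPM in the ZT0 libraries. The ZT12 libraries were alike and above all ZT0 libraries, of which library 3 came close (log2 fold change 1.74, SE 0.66, edgeR adjusted p = 0.624, estimate 3.12 without ZT0 library 3). Another MRC1 gene (ZJQ003512) shared this order of the ZT0 libraries, at 0.252, 0.641 and 3.13 CPM, and had 10.6, 6.27 and 2.97 CPM at ZT12 (2.33, SE 0.80, adjusted p = 0.569, estimate 3.84 without ZT0 library 3). The model numbered 2 after ZJQ003984, also MRC1 (ZJQ003986, named here after its values were seen), lay at 1.23 to 2.28 CPM in all 6 libraries. The ratio of ZJQ003984 to ZJQ003986 in CPM was 6.59 to 14.3 at ZT12 and 0.579 to 4.91 at ZT0.

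A further pair of MRC1 genes had estimates below 0, and neither passed. ZJQ024045 had 1.06, 2.42 and 1.92 CPM at ZT12 and 4.14, 6.49 and 6.16 CPM at ZT0, with no overlap (log2 fold change -1.65, SE 0.46, edgeR adjusted p = 0.43). ZJQ024048 had 5.73, 10.3 and 1.42 CPM at ZT12 and 4.44, 34.9 and 21.9 CPM at ZT0, where ZT0 library 1 fell inside the ZT12 range (-1.82, SE 0.81, adjusted p = 0.696, estimates -2.50 without ZT12 library 2 and -1.18 without ZT0 library 2). For MRC2 (ZJQ010515) the values were 4.46, 8.27 and 1.60 CPM at ZT12 and 2.42, 2.01 and 0.398 CPM at ZT0, and the times overlapped (1.55, SE 0.75, adjusted p = 0.713, estimate 0.92 without ZT12 library 2). Models in the whole group ran from 402 to 10719 bases.

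Markers of gut and digestion, a tissue that sampling of coelomic fluid could carry along, shared the order of some of these genes in part of the libraries only. Of 60 such genes, 36, 19 and 31 exceeded 1 CPM in ZT12 libraries 1, 2 and 3, against 13, 12 and 23 in the ZT0 libraries, and 4 were at 0 everywhere. None of the 31 tested was called by edgeR and 5 were called higher by DESeq2, beside 0.67% of all genes. At an unadjusted edgeR p under 0.05, 13 were higher and 1 lower, beside 3.44% and 3.87% of all genes tested. The 60 genes summed to 3680 to 4000 CPM at ZT12 and 3610 to 4800 CPM at ZT0. Most of this came from trypsin-1 (ZJQ009370), at 3210 to 3450 CPM at ZT12 and 3280 to 4400 CPM at ZT0. ZJQ003984 and ZJQ003512 were lowest in ZT0 libraries 1 and 2, where the fewest of these markers were above 1 CPM. CLEC6A was highest in ZT12 libraries 3 and 1, where the most were. Elsewhere the order differed. CLEC6A had 376 counts in ZT12 library 2 (19 markers) and 1 count in ZT0 library 3 (23 markers). In those libraries ZJQ003984 had 13.8 and 10.5 CPM. ZJQ003512 had 6.27 CPM in ZT12 library 2 and 2.97 CPM in ZT12 library 3 (31 markers). The part of gut markers in the lectin values was not tested.

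In the Cd209d genes, libraries of 1 time differed widely. Cd209d (ZJQ016021) had 45.0, 312 and 291 CPM in ZT12 libraries 1, 2 and 3 and 33.4, 156 and 134 CPM in the ZT0 libraries (log2 fold change 1, SE 0.75, edgeR adjusted p = 0.82). Its relative ZJQ021979 had 47.9, 211 and 183 CPM and 13.2, 205 and 237 CPM (-0.04, SE 0.89, adjusted p = 0.995). In both genes library 1 of either time was several times below the others of its time. The sign for ZJQ021979 turned to positive under 8 of the 15 other settings tried, among them plain library sizes at 0.07.

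MRC2 (ZJQ016020), the consecutive neighbour of ZJQ016021 by number, repeated that order with 6.01, 37.7 and 36.9 CPM at ZT12 and 0.252, 9.53 and 6.06 CPM at ZT0. Its ratio to ZJQ016021 in CPM was 0.121 to 0.134 in the ZT12 libraries and 0.00755 to 0.0609 in the ZT0 libraries. The log2 fold change was 2.32 (SE 0.92, edgeR adjusted p = 0.641, estimate 3.08 without ZT0 library 2), and ZT12 library 1 lay inside the ZT0 range. ZJQ016019 did not share the order, with 60, 76.3 and 94.5 CPM at ZT12 and 113, 9.48 and 0 CPM at ZT0 (0.92, SE 1.26, adjusted p = 0.918). Its estimate was 3.98 without ZT0 library 1 and 0.33 without ZT0 library 3, and 4.61 with limma-voom. In ZT0 libraries 1, 2 and 3 it had 2241, 222 and 0 counts.

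CLEC17A (ZJQ008639), named for a human B cell lectin, had 23.2, 26.6 and 35.7 CPM at ZT12 and 36.0, 35.9 and 61.7 CPM at ZT0. All ZT12 libraries lay below the ZT0 libraries, though by little, and the gene did not pass (log2 fold change -0.65, SE 0.29, edgeR adjusted p = 0.703). The remaining tested C-type lectin, described as a galactose-binding isoform (ZJQ002342), overlapped between times at 6.34 to 21.4 CPM. Of the 22 genes of this role group 16 were too low to test, among them the 6 CD209 models other than Cd209d, of which 1 was at 0 everywhere and none exceeded 0.497 CPM.

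No gene of the galectin group or of the rhamnose-binding lectins passed. The galectin-3-binding protein gene LGALS3BP (ZJQ011748) had 27.2, 31 and 27.4 CPM at ZT12 and 24.3, 20.7 and 25 CPM at ZT0, all ZT12 libraries being higher by a small margin (log2 fold change 0.29, SE 0.21, edgeR adjusted p = 0.812). For galectin-8 the estimate was also 0.29 (SE 0.38, adjusted p = 0.915), and it was at -0.10 without ZT12 library 1. None of the 5 tested genes of the galectin group had an unadjusted p under 0.05.

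Rhamnose-binding lectins are known from the eggs of sea urchins and fish, and in fish also from blood. All 7 tested genes overlapped between times and none had an unadjusted p under 0.05. The most abundant, ZJQ023408, had 70.0, 23.3 and 70.0 CPM in ZT12 libraries 1, 2 and 3 and 28.9, 24.8 and 79.4 CPM in the ZT0 libraries (log2 fold change 0.30, SE 0.55, edgeR adjusted p = 0.933, estimate 1.02 without ZT0 library 3). The next, ZJQ023950, had 10.4 to 15.1 CPM at ZT12 and 9.91 to 18.8 CPM at ZT0. A CSL1-type gene (ZJQ011177) had 0.736, 0.143 and 1.10 CPM at ZT12 and 0.101, 0.128 and 0.596 CPM at ZT0 (1.29, SE 0.90, adjusted p = 0.807, estimate 2.47 without ZT0 library 3). As with ZJQ023408, library 2 of ZT12 and libraries 1 and 2 of ZT0 were the low ones.

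**Figure D4:**
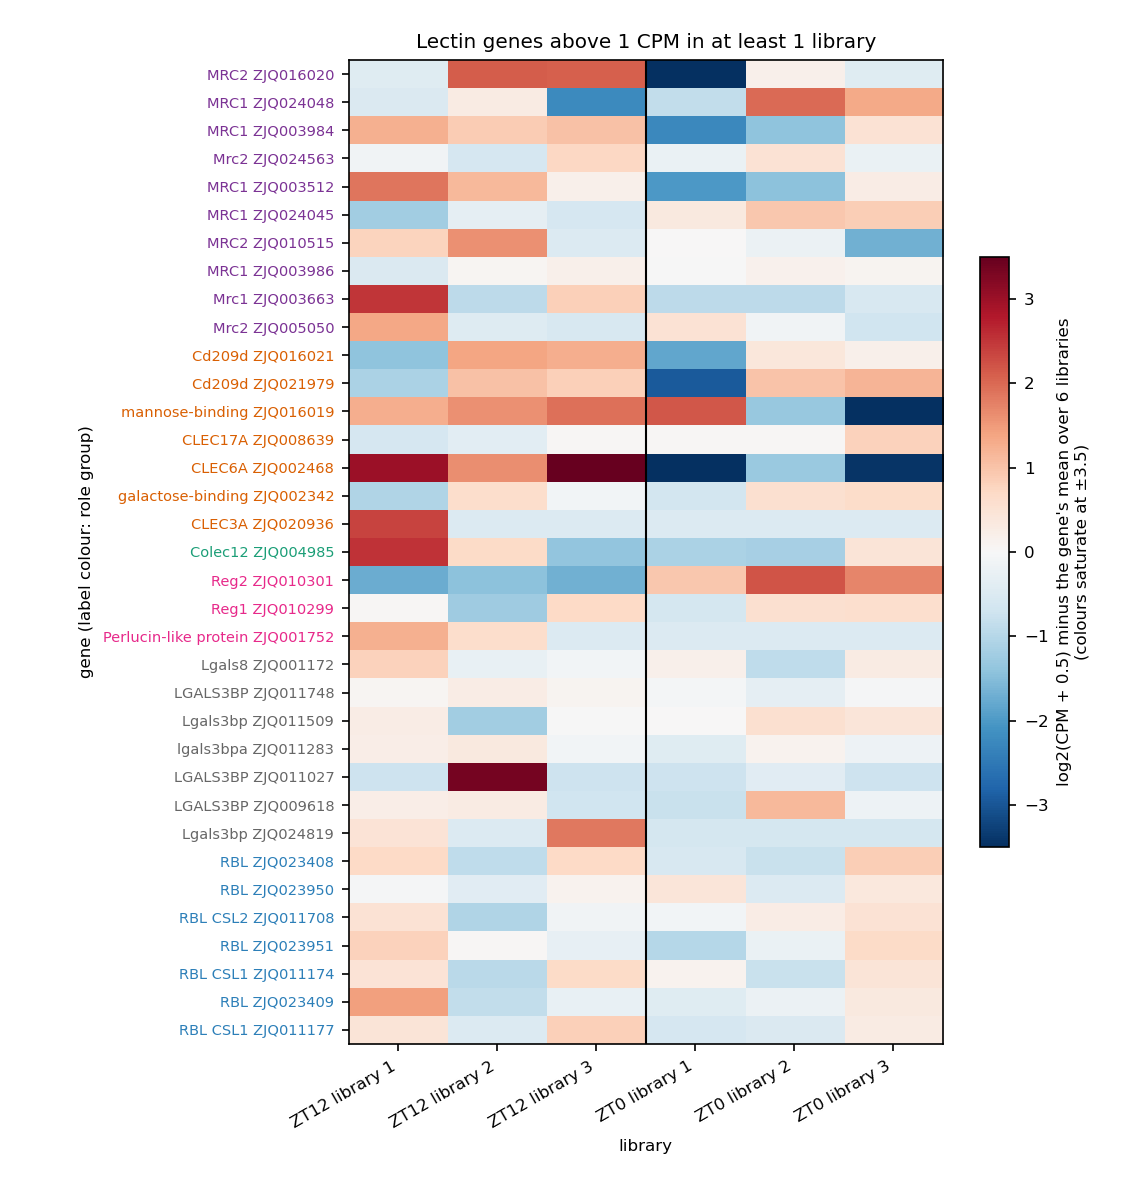
Each row is 1 of the 35 lectin genes above 1 CPM in at least 1 library, each column a library, and the colour is log2(CPM + 0.5) minus the gene's own mean over the 6 libraries. Label colours give the role group. Reg2 and CLEC6A split at the line between ZT12 and ZT0, while the Cd209d genes are low in library 1 of both times and several genes are high in 1 library alone.

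Differences between libraries of 1 time were large for many of these genes. For each tested gene the larger of the ZT12 and ZT0 ranges was taken on the log2(CPM + 0.5) scale. The median over the 30 was 1.66, against 0.96 over all 15106 coding genes tested. Since spread depends on level, coding genes were also split by mean CPM. In the class of 20 CPM and above, the 8 lectin genes had a median range of 1.97 and the 5397 coding genes one of 0.68, and between 5 and 20 CPM the values were 1.66 for 10 lectin genes and 0.96 for 4616 coding genes. Between 1 and 5 CPM the gap was smaller, at 1.63 for 9 lectin genes, of which 5 lay above the coding median, and 1.41 for 3790 coding genes. Below 1 CPM there were 3 lectin genes, at 1.91 against 1.25. Over the 4 classes 24 of the 30 lectin genes lay above the median of coding genes of their class. Lectins of other names had a median range of 2.08 over 26 tested genes and gut markers one of 1.98 over 31, so a wide range was not limited to the genes described here. These are descriptions with no test, and members of a family that share reads are not independent of each other.

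**Figure D5:**
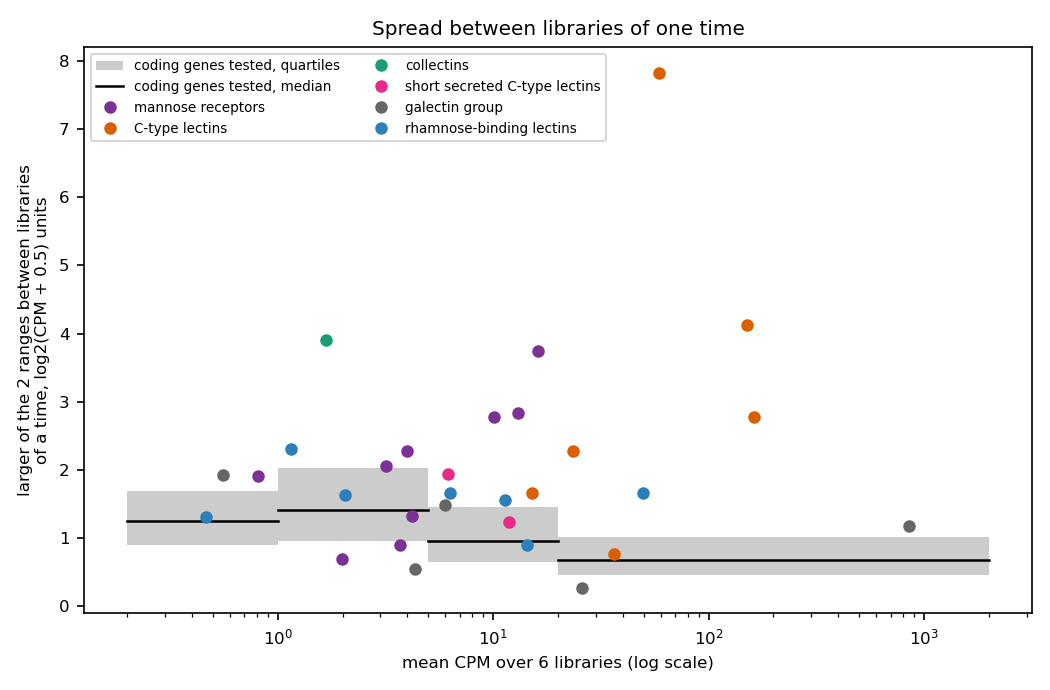
The larger of the ranges between libraries at ZT12 and at ZT0, in log2(CPM + 0.5) units, against mean CPM (log axis) for the 30 tested lectin genes. Grey bands and black lines are the quartiles and median of coding genes in the same class of mean CPM. Of the points 24 lie above the black line of their class, and ZJQ016019 is farthest from it at 7.83.

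Some lectin genes were present in some libraries and absent from others of the same time. Taking under 0.1 CPM in 1 library and above 1 CPM in another library of that time as the criterion, 9 of the 35 lectin genes above 1 CPM anywhere met it (25.7%), beside 1533 of 15919 coding genes (9.63%). The share was 22.2% for lectins of other names (6 of 27) and 24.4% for gut markers (10 of 41). Genes above 1 CPM in every library cannot meet the criterion, and these were 19 of the 35 lectin genes and 11535 of the 15919 coding genes. The shares were not matched for level. CLEC3A (ZJQ020936) had 75 counts in ZT12 library 1 (3.07 CPM) and 0 in the other 5 libraries. LGALS3BP (ZJQ011027) had 170 counts in ZT12 library 2 (8.08 CPM), 3 in ZT0 library 2 and 0 in the other 4. Neither passed the filter, so no fold change is given for them.

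Colec12 (ZJQ004985), related to a mammalian scavenger receptor that joins a collagen-like stalk to a C-type lectin domain, was the only collectin with appreciable counts. It had 7, 1.57 and 0 CPM in ZT12 libraries 1, 2 and 3 and 0.101, 0.0854 and 1.29 CPM in the ZT0 libraries (log2 fold change 2.61, SE 1.37, edgeR adjusted p = 0.734), with the times overlapping. Its estimate was 0.70 without ZT12 library 1 and 4.90 without ZT0 library 3. Mrc1 (ZJQ003663) had 4.91, 0 and 1.19 CPM at ZT12 and 0, 0 and 0.149 CPM at ZT0. ZJQ016019 and CLEC6A met the criterion at ZT0. The remaining 3 that met it, named here after their values were seen, were LGALS3BP (ZJQ009618), Lgals3bp (ZJQ024819) and a perlucin-like gene (ZJQ001752). Lgals3bp (ZJQ024819) had 14, 1 and 50 counts at ZT12 and 0 in all ZT0 libraries, a mean level at least 6.78-fold higher than 3 counts per library would give at ZT0.

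The genes that secreted lectins act through were examined as a list for the lectin pathway of complement, in which ficolins and collectins lead to cleavage of the central component C3, with factor B as its partner in amplification. No serine protease of the lectin pathway was found by name. The words complement component also brought in C1QBP (ZJQ024053), described as a mitochondrial binding protein of complement component 1 Q, which was tested. They brought in the receptor-like gene Cr1l (ZJQ008985) as well, which did not pass the filter. Of the 19 genes in the list 10 were tested and none was called by edgeR. An unadjusted edgeR p under 0.05 was reached by 1, beside 7.31% of all genes tested, while DESeq2 called 1 higher (0.67% of all genes). That gene was C3 (ZJQ009111), with 1250, 175 and 769 CPM in ZT12 libraries 1, 2 and 3 and 88.9, 119 and 254 CPM in the ZT0 libraries (log2 fold change 2.24, SE 0.69, edgeR adjusted p = 0.505). ZT12 library 2 lay inside the ZT0 range. Next by p came the ficolin gene FCN2 (ZJQ014108), with 5.46 to 9.86 CPM at ZT12 and 8.89 to 18.0 CPM at ZT0 (-0.84, SE 0.38, adjusted p = 0.703).

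Lectins that work inside the cell, sorting and folding glycoproteins (calreticulin, malectin, ERGIC-53, VIP36, OS-9 and the mannose-6-phosphate receptors), were all detected. All 13 were above 1 CPM in every library, the median log2 fold change was -0.05 and none was called by edgeR or DESeq2. An unadjusted edgeR p under 0.05 was reached by 1 gene, beside 7.31% of all genes tested. That gene was an M6pr model (ZJQ008223), with 7.20, 3.94 and 3.79 CPM at ZT12 and 2.22, 2.22 and 2.09 CPM at ZT0 (no overlap, as in 12.2% of all genes tested, log2 fold change 1.2, SE 0.44, edgeR adjusted p = 0.617). Another M6pr model (ZJQ008217) was next by p, at -0.54 (SE 0.39, adjusted p = 0.814).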

How the data were processed

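The submitters' processing notes list fastp, HISAT2 and HTSeq. Genome build: not given in the sources used here, nor were versions or the strand setting. Whole-number counts per gene were deposited by the authors for 6 libraries, not normalized, with FPKM values per library, which equalled counts over library total and 1 length per gene within 0.1% for 100% of 145283 values above 0. The test was that of edgeR 4.0.16 (R 4.3.3), with filterByExpr (minimum count 10, minimum total 15), TMM scaling, glmQLFit with legacy = FALSE and glmQLFTest, Benjamini-Hochberg adjustment over 18456 genes, threshold 0.05. CPM uses TMM-scaled sizes. Each SE was obtained as |log2 fold change| / sqrt(F). Reads of overlapping or near-identical genes may be shared. DESeq2 1.42.0, limma 3.58.1 and other settings served as alternatives. Named genes were every called gene, the 12 with the smallest p, the 8 most abundant, the 2 most abundant tested per role group and up to 6 present in some libraries of a time only, and in comparison lists the called genes and the 2 with the smallest p. Members and lists were chosen with earlier results of these data known. Neurotrypsins and inhibitors were removed by name from the gut markers.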

Additional observations from a re-analysis of the deposited data

How the results depend on the processing

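The count of lectin genes called was 1 (Reg2) and the median log2 fold change of the tested genes 0.29. With RLE scaling, without the filter, with DESeq2 (1 lower, Reg2, beside 264 of all genes), with limma-trend on log2(FPKM + 0.1), and over the 26 genes with at least 10 counts in every library of 1 time, the count was again 1. It was 0 with plain library sizes (Reg2 adjusted p = 0.0671), limma-voom (0.29), edgeR with legacy = TRUE (0.0532) and limma-trend on log2(FPKM + 1) (0.0528). Reg2 stayed between -3.91 and -3 on the log2 scale in all of these and with single libraries left out. With libraries left out in turn the count was 0 to 1 and the median 0.07 to 0.43. For left-out lectin-like genes the count of 2 became 5 with DESeq2, 0 with limma-voom, 1 with legacy = TRUE and 0 to 2 with libraries left out (0 without ZT12 library 1 or 3). The complement pathway count of 0 became 1 with DESeq2. Over all genes 24 calls became 264 with DESeq2, 10 with legacy = TRUE, 0 with limma-voom and 0 to 24 with libraries left out. Where a call was lost, the cause was not tested.

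Same-numbered libraries correlated in their deviations at -0.048, 0.017 and -0.001. The labels do not say whether equal numbers mark pairs, and correlations over all genes from 3 libraries a time cannot decide it. With a replicate block the lectin count was 0 (Reg2 at -3.56, adjusted p = 0.0618), and 13 of all genes were called. No ZT12 library correlated best with the ZT0 library of its own number.

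Plain library sizes moved the median of all genes to 0.119 and log2(FPKM + 0.1) to 0.112. Among the 19 named genes tested, 264 of 285 alternative values kept direction and side of the threshold, and 3 genes changed sign somewhere, none of them called. Cd209d (ZJQ021979, -0.04) was at 0.07 with plain library sizes, 0.49 with limma-voom, 0.58 and 0.62 on FPKM, 0.46 with the replicate block and up to 0.43 with a library left out (lowest -0.59). Lgals8 was at -0.10 to 0.49 and Reg1 at -0.79 to 0.13 with libraries left out. Genes under about 0.151 CPM cannot be told from absent at this depth.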
